A study of Homo sapiens with 6 samples.

Results

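Transcripts for the synthesis of purine and pyrimidine nucleotides, of one-carbon units and of serine were followed across 3 culture conditions in AN3-CA, an established human line of endometrial cancer. The set was a list of 34 genes, each represented by the probe set that carried exactly its symbol and had the highest mean log2 intensity over the 6 arrays. In all, 33 of the 34 had such a probe set, out of 19042 genes on the array table, and 93 of its 49293 probe sets named a member. NME1, a nucleoside diphosphate kinase, had no probe set with that symbol alone and has no value here. The members fell into a purine branch (15 measured), a pyrimidine branch (10) and a folate and serine branch (8). The labels describe 1 plating of the line into 6 dishes, 24 h of culture and then 18 h in serum-free medium with the agents. The DMSO group received the vehicle at 0.5% with no added ligand. The aFGF group received acidic fibroblast growth factor at 10 ng/mL, which activates the FGF receptors, with DMSO at 0.5%. The third group received aFGF at that dose and AZD4547, an FGF receptor kinase inhibitor, at 300 nM. Each group held 2 cultures that the labels call biological replicates. No AZD4547 group lacked aFGF, all groups shared the serum-free medium, and a single cell line was used.

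Purine rings are built stepwise on phosphoribosyl pyrophosphate (PRPP) up to inosine monophosphate (IMP), from which AMP and GMP branch. The pyrimidine ring is assembled first and then joined to PRPP to give UMP, the precursor of the other pyrimidine nucleotides. Serine made from a glycolytic intermediate donates the carbon that folate carries as one-carbon units, which the purine ring and thymidylate both take up. Proliferating cells use all of these routes for RNA and DNA, and in many cell types MYC and ATF4 are known to promote transcription of their genes.

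Promoters are shown for 4 members of the purine and the folate and serine branches, because the results below set these branches against each other. The windows run from 250 bases before to 50 bases after the annotated start site and come from RefSeq on GRCh38.p14, which held one for 29 of the 33 measured members. Each gene had a single window, so any other start site of a gene was not searched. The letters CACGTG, an E-box, were in only 2 of 13 purine windows, and in 2 of 6 folate and serine windows. So the 2 purine promoters shown are not typical of their branch. PPAT (chr4:56435566-56435865, minus strand) and ATIC (chr2:215311809-215312108, plus strand) are these purine promoters, with CACGTG set in capitals.
PPAT: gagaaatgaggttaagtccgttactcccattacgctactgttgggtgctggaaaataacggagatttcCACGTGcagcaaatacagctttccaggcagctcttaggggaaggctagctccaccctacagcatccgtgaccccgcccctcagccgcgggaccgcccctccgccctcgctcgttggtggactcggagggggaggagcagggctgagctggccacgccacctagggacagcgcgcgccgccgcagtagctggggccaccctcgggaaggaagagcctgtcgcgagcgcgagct
ATIC: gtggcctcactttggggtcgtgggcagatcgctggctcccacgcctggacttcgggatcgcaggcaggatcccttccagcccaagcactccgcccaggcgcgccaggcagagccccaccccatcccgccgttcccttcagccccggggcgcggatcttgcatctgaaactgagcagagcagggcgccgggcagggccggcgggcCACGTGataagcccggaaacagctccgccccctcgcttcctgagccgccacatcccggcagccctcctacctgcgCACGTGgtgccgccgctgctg

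PHGDH (chr1:119711684-119711983, plus strand) and SHMT1 (chr17:18363501-18363800, minus strand) show the letters CCAAT, or ATTGG on the other strand, in capitals.
PHGDH: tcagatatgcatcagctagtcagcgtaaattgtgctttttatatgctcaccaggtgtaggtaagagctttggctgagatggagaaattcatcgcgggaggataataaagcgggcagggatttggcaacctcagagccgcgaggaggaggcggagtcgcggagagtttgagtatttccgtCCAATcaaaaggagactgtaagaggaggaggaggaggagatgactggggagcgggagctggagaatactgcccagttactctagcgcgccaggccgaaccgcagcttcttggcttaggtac
SHMT1: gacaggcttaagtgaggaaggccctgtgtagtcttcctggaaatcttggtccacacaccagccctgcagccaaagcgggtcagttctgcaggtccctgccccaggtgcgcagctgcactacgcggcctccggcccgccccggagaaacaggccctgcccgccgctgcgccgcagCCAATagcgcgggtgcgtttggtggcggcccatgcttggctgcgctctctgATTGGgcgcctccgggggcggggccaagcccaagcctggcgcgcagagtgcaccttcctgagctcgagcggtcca

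Searched on both strands, CACGTG was in 2 of 13 purine promoters (PPAT and ATIC), in 1 of 10 pyrimidine promoters (DHODH) and in 2 of 6 folate and serine promoters (MTHFD1 and MTHFD1L), against 7.43% of all 27305 promoter windows. CCAAT was in 2 of 13 purine promoters (GART and PRPS1), in 5 of 10 pyrimidine promoters and in all 6 folate and serine promoters that had a window (SHMT1, MTHFD1, MTHFD1L, MTHFD2, PHGDH and PSAT1), against 35.7% of all windows. The letters TGATGNAA, an element of ATF and C/EBP factors, were in 1 member window (MTHFD1L) and in 3.67% of all windows. Of the E2F forms searched, TTTCCCGC was in PRPS2 and TYMS (1.66% of all windows) and TTTGGCGC in 0 of the 29 (0.659% of all). None of the motifs searched contains another, and these matches describe letters only.

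All 33 measured members lay above the array medians of log2 intensity (2.84 to 2.89) on each of the 6 arrays, so none was dim. Cultures of a group correlated across probe sets at 0.9966 in DMSO, 0.9974 with aFGF and 0.9973 with AZD4547. As to the label, 6 of 9 Müllerian and endometrial markers lay above the array medians on all 6 arrays, led by HOXA10 (mean log2 intensity 7.05). PAX8 (2.20), SOX17 (1.62) and the progesterone receptor gene PGR (0.48) did not. Of 6 epithelial markers, KRT18 (4.27) and CLDN4 (3.82) were above them and KRT8 (2.12), KRT19 (0.99), CDH1 (1.15) and EPCAM (0.47) were not. By the same rule, leukocyte markers were above in 0 of 6 cases and endothelial markers in 0 of 5. Fibroblast markers were above in 1 of 7 (COL1A2, 9.70) and smooth muscle markers in 1 of 4 (DES, 3.28). The endothelial KDR (2.91) and the fibroblast COL3A1 (3.15) had means above the medians but fell below them on some arrays. COL3A1 stood at 2.70 and 2.71 with aFGF, below the medians, and at 3.51 and 3.45 with AZD4547. Of the fibroblast markers 2 were called with aFGF and 1 in each of the other comparisons, with summed log2 levels of 18.8 and 20.2 in DMSO, 19.1 and 19.1 with aFGF and 19.5 and 20.0 with AZD4547. Of the 9 Müllerian and endometrial markers 4 were called with AZD4547 over aFGF and 1 in each of the other comparisons, with sums of 33.4 and 32.9 in DMSO, 32.3 and 32.5 with aFGF and 33.7 and 34.4 with AZD4547. Of the epithelial markers 1 was called with aFGF and 1 with AZD4547 over aFGF, with sums of 12.9 and 13.0, 13.4 and 13.0, and 12.3 and 12.2 in the same order. Of the endothelial, leukocyte and smooth muscle markers 0 were called. The part of these markers in the results was not tested. In bulk RNA, fewer cells in a given state and less RNA per cell cannot be told apart.

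**Figure D1:**
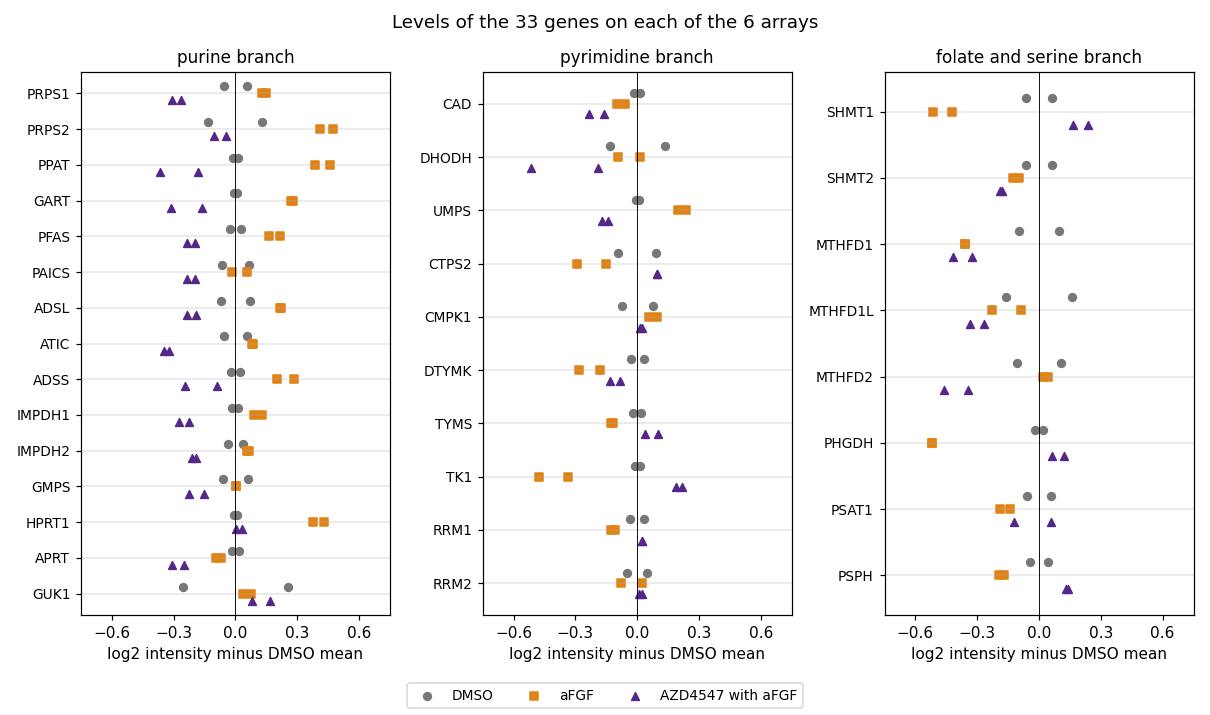
Levels of the 33 genes by branch, as log2 intensity minus the DMSO mean of the same gene. Each point is 1 array (circles DMSO, squares aFGF, triangles AZD4547 with aFGF). In the purine panel the triangles lie left of the squares for every gene except GUK1, while TK1, SHMT1, PHGDH and PSPH show the reverse order.

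With AZD4547 the purine genes were lower than with aFGF alone almost throughout, with 14 of 15 called and a median log2 fold change of -0.41. A gene is called here at an adjusted p under 0.05 from limma, adjusted by the method of Benjamini and Hochberg over all 19042 genes. In the pyrimidine branch 3 of 10 were higher and 1 lower (median 0.08), and in the folate and serine branch 3 of 8 were higher and 1 lower (median 0.06). The median over all genes was -0.020. For the 33 members together this made 16 lower, where 10.1% of all genes were called lower, and 6 higher, where 15.6% of all genes were called higher. The share higher among the members (18.2%) was near that background, and the share lower (48.5%) was above it. Since all members are bright, the shares among the 10466 genes with a mean above the median probe set stand beside these, 17% lower and 26.5% higher. The values of the 2 groups did not overlap for 31 of the 33 members, against 60.6% of all genes and 78.2% of the brighter ones.

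With aFGF alone, of the purine genes 6 rose and 0 fell (limma, 8 and 0 at an unadjusted p under 0.05, median log2 fold change 0.14). Of the pyrimidine genes 1 rose and 2 fell (1 and 5 unadjusted, median -0.10). Of the folate and serine genes 0 rose and 3 fell (0 and 5 unadjusted, median -0.17). All genes had a median of -0.0083, and at an unadjusted p under 0.05 in the limma fit 2014 of the 19042 rose and 3041 fell. The total of 7 rises among 33 members (21.2%) compares with 5.92% of all genes, and the 5 falls (15.2%) with 9.72%. Among the brighter genes 10.2% rose and 16.8% fell, so the share of falls was near that background. The groups did not overlap for 25 members, against 50.5% of all genes and 65.7% of the brighter ones. Without aFGF replicate 1, and likewise without replicate 2, 2 members rose and 3 fell.

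Against DMSO, 8 of 33 members were lower with AZD4547 and aFGF (24.2%), where 2.41% of all genes were called lower, and 0 were higher, where 2.28% of all genes were called higher. Among the brighter genes 4.28% were called lower and 3.97% higher. At an unadjusted p under 0.05 the limma counts were 19 lower and 3 higher, where 1673 of all 19042 genes were lower and 1838 higher. The unadjusted share higher among the members was thus near that of all genes. The groups did not overlap for 26 members, against 44.8% of all genes and 54.1% of the brighter ones. The 8 calls were 6 purine genes, MTHFD1 and MTHFD2. Leaving out any single array with aFGF or with AZD4547 left 0 members called lower, as did a prior variance with no intensity trend. Each pair of these comparisons shares the arrays of 1 group, so they are not independent.

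**Figure D2:**
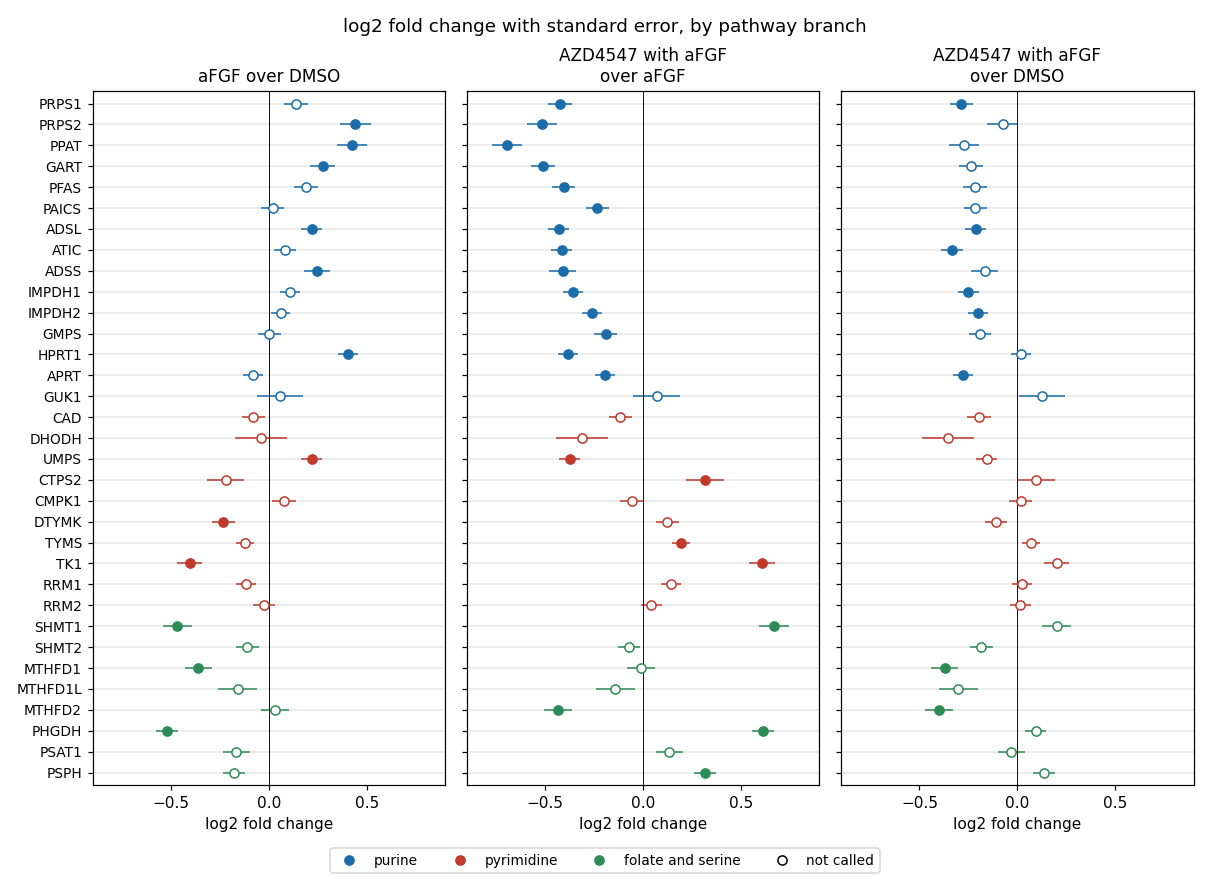
log2 fold change of each of the 33 genes in the 3 comparisons, with its standard error as a bar. Filled points were called at an adjusted p under 0.05 and open points were not. The purine genes (blue) lie left of 0 in the middle panel except GUK1, and PPAT is the lowest at -0.70.

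PRPP is the ribose donor of all nucleotides, made by PRPS1 and PRPS2. PRPS2 stood at log2 intensities of 7.03 and 7.30 in DMSO, 7.57 and 7.64 with aFGF and 7.12 and 7.06 with AZD4547. The aFGF cultures were the highest, and the AZD4547 cultures overlapped those in DMSO. Its log2 fold change was 0.44 with aFGF (SE 0.08, limma adjusted p = 0.0026) and -0.52 with AZD4547 over aFGF (SE 0.08, adjusted p = 0.00043). PRPS1 stood at 6.87 and 6.98 in DMSO, 7.07 and 7.05 with aFGF and 6.66 and 6.62 with AZD4547. For this gene the AZD4547 cultures were below both other groups. PRPS1 was 1.34-fold lower than with aFGF (log2 -0.42, SE 0.06, adjusted p = 0.00027) and lower than in DMSO (log2 -0.29, SE 0.06, adjusted p = 0.022), while its value with aFGF was 0.14 (adjusted p = 0.17). The PRPS2 rise with aFGF was lost without aFGF replicate 2. Its other probe set (mean 6.36) was not called with aFGF (log2 0.24, limma adjusted p = 0.054 over all probe sets). That probe set had -0.55 with AZD4547 over aFGF and was called below DMSO (log2 -0.31, adjusted p = 0.049). So whether PRPS2 with AZD4547 differed from DMSO depended on the probe set.

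All 6 genes of the route from PRPP to IMP were lower with AZD4547 than with aFGF. PPAT, whose product catalyses the committed step, had log2 intensities of 5.60 and 5.58 in DMSO, 6.05 and 5.98 with aFGF and 5.23 and 5.41 with AZD4547. The 3 groups did not overlap, with aFGF highest and AZD4547 lowest. PPAT rose 1.34-fold with aFGF (log2 0.42, SE 0.08, limma adjusted p = 0.0031) and was 1.62-fold lower with AZD4547 (log2 -0.70, SE 0.08, adjusted p = 4.7e-05). Against DMSO it stood at -0.27 (adjusted p = 0.071). Its other probe set gave -0.81 for AZD4547 over aFGF and was called below DMSO (log2 -0.33, limma adjusted p = 0.047 over all probe sets). The rise with aFGF was lost without aFGF replicate 1.

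GART, a trifunctional enzyme of the route, had log2 intensities of 7.15 and 7.17 in DMSO, 7.43 and 7.44 with aFGF and 6.997 and 6.84 with AZD4547. These groups were again separate in the same order. GART rose by 0.27 with aFGF (SE 0.06, limma adjusted p = 0.011) and was 1.43-fold lower with AZD4547 (log2 -0.51, SE 0.06, adjusted p = 9e-05). All 5 of its probe sets had a negative AZD4547 value, from -0.83 to -0.28. Against DMSO the brightest was not called (log2 -0.24, adjusted p = 0.054). The probe set with a mean of 5.48 was called below DMSO (log2 -0.40, limma adjusted p = 0.021 over all probe sets). The rise with aFGF was lost without either aFGF array.

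ADSL, which acts both before IMP and on the way to AMP, had log2 intensities of 9.06 and 9.20 in DMSO, 9.35 and 9.35 with aFGF and 8.90 and 8.94 with AZD4547. The groups were separate. It rose by 0.22 with aFGF (SE 0.05, limma adjusted p = 0.017), a call lost without either aFGF array. With AZD4547 it was 1.35-fold lower than with aFGF (log2 -0.43, SE 0.05, adjusted p = 0.00012). It was the only member called in all 3 comparisons, its fall below DMSO (-0.21) passing at an adjusted p that rounds to 0.05 and ending under 13 of the 16 alternative settings. A second ADSL probe set, with a mean of 0.56, was dim, and averaging it with the first ended all 3 calls.

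ATIC, which closes the purine ring, had log2 intensities of 7.82 and 7.71 in DMSO, 7.85 and 7.84 with aFGF and 7.42 and 7.44 with AZD4547. Here DMSO and aFGF lay close together and the AZD4547 cultures lay below both. ATIC was 1.33-fold lower with AZD4547 than with aFGF (log2 -0.42, SE 0.06, limma adjusted p = 0.00017) and 1.26-fold lower than in DMSO (log2 -0.33, SE 0.06, adjusted p = 0.0073). PFAS, which transfers the glutamine nitrogen to the growing ring, had 6.41 and 6.46 in DMSO, 6.65 and 6.60 with aFGF and 6.20 and 6.24 with AZD4547. Its groups were separate in the order seen for GART. PFAS was 1.33-fold lower with AZD4547 than with aFGF (log2 -0.41, SE 0.06, adjusted p = 0.00038), and its value with aFGF was 0.19 (adjusted p = 0.056). PAICS, a bifunctional enzyme of the middle steps, had the smallest change of the 6 genes, -0.23 (SE 0.06, adjusted p = 0.01), a call that ended when any single aFGF or AZD4547 array was omitted.

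The 4 genes that turn IMP into AMP and GMP were likewise lower with AZD4547 than with aFGF. ADSS (ADSS2 in current nomenclature), the adenylosuccinate synthase, had log2 intensities of 6.67 and 6.62 in DMSO, 6.84 and 6.93 with aFGF and 6.55 and 6.40 with AZD4547. Its 3 groups were separate. ADSS rose by 0.24 with aFGF (SE 0.07, limma adjusted p = 0.03), which did not pass when either aFGF array or DMSO replicate 2 was omitted, and had a log2 fold change of -0.41 with AZD4547 (SE 0.07, adjusted p = 0.00075). The IMP dehydrogenase genes IMPDH1 and IMPDH2, which lead to GMP, were at -0.36 (SE 0.05) and -0.26 (SE 0.05). Both were also called below DMSO (log2 -0.25 and -0.20). GMPS, which completes GMP, was at -0.19 (SE 0.06, adjusted p = 0.027), a call that ended when any single aFGF or AZD4547 array was omitted. None of IMPDH1, IMPDH2 and GMPS was called with aFGF, with values of 0.11, 0.060 and 0.0022.

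The salvage enzymes return free bases to nucleotides. HPRT1, for hypoxanthine and guanine, rose 1.32-fold with aFGF, from a mean log2 intensity of 8.01 in DMSO to 8.42 (log2 0.40, SE 0.05, limma adjusted p = 0.00025). With AZD4547 it was back at 8.03, 1.31-fold below aFGF (log2 -0.38, adjusted p = 0.00014) and 0.02 above DMSO (95% interval -0.09 to 0.13). APRT, for adenine, had a value of -0.08 with aFGF and -0.20 with AZD4547 over aFGF (adjusted p = 0.014), and it was called below DMSO (log2 -0.28, adjusted p = 0.012). Its fall below aFGF was lost without aFGF replicate 1 or 2 or AZD4547 replicate 1. HPRT1 and APRT thus differed in which comparisons called them, and a difference between them was not tested. The brightest probe set of GUK1, the GMP kinase, was not called in any comparison. Its DMSO cultures stood at 7.92 and 8.43, farther apart than those of any other group shown, and its AZD4547 value over aFGF was 0.07 (95% interval -0.19 to 0.33). With aFGF its value was 0.06, but -0.20 without DMSO replicate 1 and 0.31 without DMSO replicate 2. The other GUK1 probe sets all had negative values with aFGF, from -0.17 to -0.12, with none called. Of these, the probe set with a mean of 7.06 was called higher with AZD4547 over aFGF (log2 0.21, limma adjusted p = 0.033 over all probe sets).

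In the pyrimidine branch the genes of the route to UMP did not share 1 outcome. UMPS, the enzyme of the last steps, had log2 intensities of 7.36 and 7.35 in DMSO, 7.60 and 7.55 with aFGF and 7.19 and 7.21 with AZD4547. The groups were separate, with aFGF highest and AZD4547 lowest, as for PPAT and GART. UMPS rose by 0.22 with aFGF (SE 0.05, limma adjusted p = 0.015), a call that ended without either aFGF array and with the mean of all probe sets, and was 1.30-fold lower with AZD4547 (log2 -0.38, SE 0.05, adjusted p = 0.00025). CAD, the trifunctional enzyme that starts the route, was not called in any comparison, with -0.08 for aFGF (95% interval -0.21 to 0.05) and -0.12 for AZD4547 over aFGF (-0.25 to 0.02). DHODH, the mitochondrial enzyme between them and the least bright member (mean 3.69), had -0.31 for AZD4547 over aFGF (adjusted p = 0.11, 95% interval -0.60 to -0.02). Each of CAD, DHODH and UMPS thus had a negative AZD4547 value, with 1 of the 3 called.

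Of the thymidylate genes, TK1 and TYMS were higher with AZD4547 than with aFGF, where the purine genes were lower. TK1, the thymidine kinase that salvages thymidine, had log2 intensities of 6.57 and 6.60 in DMSO, 6.11 and 6.25 with aFGF and 6.80 and 6.77 with AZD4547. The aFGF cultures were the lowest and the AZD4547 cultures the highest, with no overlap. TK1 was 1.32-fold lower with aFGF (log2 -0.41, SE 0.06, limma adjusted p = 0.0013) and 1.52-fold higher with AZD4547 than with aFGF (log2 0.61, SE 0.06, adjusted p = 3.4e-05).

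TYMS, the thymidylate synthase, had log2 intensities of 9.54 and 9.50 in DMSO, 9.39 and 9.40 with aFGF and 9.62 and 9.56 with AZD4547. The order of its groups was that of TK1 over a smaller range. It rose by 0.19 with AZD4547 over aFGF (SE 0.05, limma adjusted p = 0.0091), which did not pass when either aFGF array or AZD4547 replicate 1 was omitted. DTYMK, the thymidylate kinase, had 7.86 and 7.79 in DMSO, 7.54 and 7.64 with aFGF and 7.74 and 7.69 with AZD4547. Only the fall with aFGF passed the test for DTYMK (log2 -0.23, SE 0.06, adjusted p = 0.016), and this was lost without either aFGF array and after median centring. With AZD4547 over aFGF it stood at 0.12 (adjusted p = 0.15).

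The genes of ribonucleotide reductase, which makes deoxyribonucleotides, were not called in any comparison. RRM1 had log2 fold changes of -0.12 with aFGF and 0.14 with AZD4547 over aFGF (limma adjusted p = 0.059, 95% interval 0.03 to 0.25), and it was called when either DMSO array was omitted. RRM2 had -0.03 and 0.04 (95% interval -0.08 to 0.16), and its 2 probe sets differed in sign. CTPS2, a CTP synthase, had log2 intensities of 4.47 and 4.29 in DMSO, 4.23 and 4.09 with aFGF and 4.48 and 4.47 with AZD4547. Its aFGF cultures were the lowest. CTPS2 rose by 0.32 with AZD4547 over aFGF (SE 0.10, adjusted p = 0.03). This call ended when any single aFGF or AZD4547 array was omitted and after median centring or quantile normalisation. Its value with aFGF was -0.22 (adjusted p = 0.17). The second CTPS2 probe set (mean 4.23) rose by 0.67 and was called lower with aFGF (log2 -0.45, adjusted p = 0.011 over all probe sets). With the mean of its probe sets CTPS2 was also called lower with aFGF. CMPK1, the UMP and CMP kinase, had -0.06 (95% interval -0.19 to 0.07).

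Serine synthesis starts with PHGDH, which had log2 intensities of 7.08 and 7.12 in DMSO, 6.58 and 6.58 with aFGF and 7.16 and 7.22 with AZD4547. The aFGF cultures were clearly the lowest, and the AZD4547 cultures lay just above DMSO. PHGDH was 1.43-fold lower with aFGF (log2 -0.52, SE 0.06, limma adjusted p = 0.0001) and 1.53-fold higher with AZD4547 than with aFGF (log2 0.61, SE 0.06, adjusted p = 1.1e-05). Against DMSO it stood at 0.09 (95% interval -0.03 to 0.22). PSPH, which releases serine in the last step, had 7.21 and 7.12 in DMSO, 6.97 and 6.997 with aFGF and 7.31 and 7.30 with AZD4547. Its groups had the same order. PSPH rose by 0.32 with AZD4547 over aFGF (SE 0.06, adjusted p = 0.0013), and its aFGF value was -0.18 (adjusted p = 0.052). Averaging its 3 probe sets, of which 1 was dim (mean 0.31), ended the call.

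PSAT1, the transaminase between PHGDH and PSPH, was not called in any comparison. Its brightest probe set had 0.13 for AZD4547 over aFGF (95% interval -0.02 to 0.29). Of its 7 other probe sets 6 had a negative value there, and 1 of them was called lower at -0.23. So the direction of PSAT1 depended on the probe set.

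The serine hydroxymethyltransferases pass the carbon of serine to folate, SHMT1 in the cytosol and SHMT2 in mitochondria. SHMT1 had log2 intensities of 5.63 and 5.51 in DMSO, 5.06 and 5.15 with aFGF and 5.81 and 5.74 with AZD4547. Its 3 groups were separate, in the order of TK1 and PHGDH. It was 1.38-fold lower with aFGF (log2 -0.47, SE 0.08, limma adjusted p = 0.0015) and 1.59-fold higher with AZD4547 than with aFGF (log2 0.67, SE 0.08, adjusted p = 5.5e-05), the largest rise of any member in that comparison. The brightest probe set of SHMT2 was not called, with -0.11 for aFGF and -0.07 for AZD4547 over aFGF (95% interval -0.20 to 0.06). Its 3 other probe sets, nearly as bright, were each called lower with aFGF, at -0.20, -0.21 and -0.21 (limma adjusted p = 0.041, 0.044 and 0.035 over all probe sets). With the mean of its probe sets SHMT2 was called lower with aFGF (log2 -0.18, adjusted p = 0.023), as it was without DMSO replicate 1. With that mean it was also called lower than DMSO with AZD4547, and was not called with AZD4547 over aFGF. A difference between SHMT1 and SHMT2 was not tested.

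Folate-bound one-carbon units are oxidised and released as formate by MTHFD2 and MTHFD1L in mitochondria and taken up again by MTHFD1 in the cytosol. MTHFD2 had log2 intensities of 8.09 and 7.88 in DMSO, 8.03 and 8.004 with aFGF and 7.64 and 7.53 with AZD4547. Its DMSO and aFGF cultures overlapped, and the AZD4547 cultures were below both. MTHFD2 was 1.35-fold lower with AZD4547 than with aFGF (log2 -0.43, SE 0.07, limma adjusted p = 0.00075) and 1.32-fold lower than in DMSO (log2 -0.40, SE 0.07, adjusted p = 0.0099), the largest fall of a member below DMSO. All 5 of its probe sets were called lower with AZD4547 over aFGF.

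MTHFD1 followed neither course. It had log2 intensities of 7.44 and 7.24 in DMSO, 6.98 and 6.98 with aFGF and 7.02 and 6.92 with AZD4547. The aFGF and AZD4547 cultures overlapped, and both lay below DMSO. MTHFD1 was 1.28-fold lower with aFGF (log2 -0.36, SE 0.07, limma adjusted p = 0.0047) and 1.29-fold lower than DMSO with AZD4547 (log2 -0.37, SE 0.07, adjusted p = 0.014). AZD4547 over aFGF gave -0.01 (95% interval -0.17 to 0.14). Being called below DMSO in both groups, and not between these groups, was the pattern of 11 of all 19042 genes. With the mean of its probe sets SHMT2 had this pattern too. Both comparisons with DMSO rest on the same DMSO arrays, and the fall of MTHFD1 with aFGF was lost without either aFGF array. The brightest probe set of MTHFD1L had -0.16 with aFGF and -0.14 with AZD4547 over aFGF (adjusted p = 0.36 for both). Of its 3 other probe sets 1 was called lower with AZD4547 over aFGF (log2 -0.49, adjusted p = 0.0018 over all probe sets). The mean of its probe sets was called lower over aFGF (log2 -0.24, adjusted p = 0.018) and over DMSO (log2 -0.26, adjusted p = 0.045).

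Taking the calls of each member over the first 2 comparisons, 7 rose with aFGF and were lower with AZD4547, namely PRPS2, PPAT, GART, ADSL, ADSS, HPRT1 and UMPS. A further 3 fell with aFGF and were higher with AZD4547 (TK1, SHMT1 and PHGDH). Calls of 1 direction in the 2 comparisons were had by 0 members, and by none of the 19042 genes. Of the 7, 6 had no call over DMSO, the pattern of 4.01% of all genes. ADSL was also called below DMSO, the pattern of 1.04%. The 3 that fell had no call over DMSO, the pattern of 7.68% of all genes, so 3 of 33 was near that background. The first 2 comparisons share the aFGF arrays. Without a call for aFGF over DMSO, PRPS1, PFAS, PAICS, ATIC, IMPDH1, IMPDH2, GMPS, APRT and MTHFD2 were lower with AZD4547 than with aFGF. Also without such a call, CTPS2, TYMS and PSPH were higher, though the second CTPS2 probe set was called lower with aFGF.

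**Figure D3:**
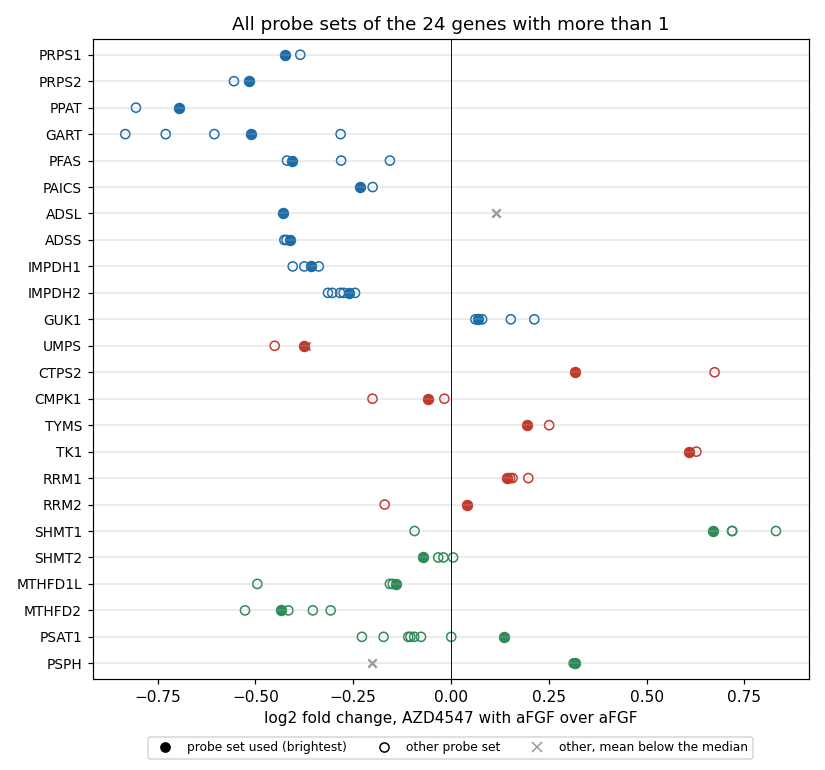
log2 fold change of AZD4547 with aFGF over aFGF for every probe set of the 24 genes that had more than 1. Filled points are the brightest probe set, which represents the gene, open points are the others, and crosses are others with a mean below the median probe set. The points of GART, IMPDH2 and MTHFD2 all lie left of 0, and those of PSAT1, SHMT1, ADSL, PSPH, SHMT2 and RRM2 lie on both sides.

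Other probe sets of the same genes give a second reading from the same RNA. For AZD4547 over aFGF, 37 further probe sets belonged to members that had been called, and 34 of them had the sign of the call. The 3 exceptions were the dim probe sets of ADSL and PSPH and 1 of SHMT1 (-0.09). Of the 37, 29 were called in the same direction and 0 in the opposite one when all 49293 probe sets were fitted with limma. With aFGF the corresponding counts were 14 of 16 with the same sign, 8 called alike and 0 opposite. Probe sets of a gene can share sequence and always share arrays, so they are not replicates.

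Other genes of these pathways, from a list of 85 of which 82 had a probe set with 1 symbol, moved in both directions, and 22 of the 82 were dim. With aFGF 9 rose (11%, against 5.92% of all genes) and 17 fell (20.7%, against 9.72%), with a median log2 fold change of -0.0050. With AZD4547 over aFGF 21 were higher (25.6%, against 15.6%) and 17 lower (20.7%, against 10.1%), with a median of -0.024. Over DMSO 0 were higher (against 2.28%) and 10 lower (12.2%, against 2.41%), with a median of -0.031. Most of the 82 were bright. Among the brighter genes 10.2% rose and 16.8% fell with aFGF, and 26.5% were higher and 17% lower with AZD4547 over aFGF. Against these the list's shares of rises were near background and its shares of falls were somewhat above. Over DMSO 3.97% of the brighter genes were higher and 4.28% lower. At an unadjusted p under 0.05 the limma counts over DMSO were 8 higher and 17 lower of the 82. Of all 19042 genes 1838 were higher and 1673 lower by that measure, so the share higher was near that of all genes. UPP1, the uridine phosphorylase that breaks uridine down to uracil, had log2 intensities of 6.27 and 6.30 in DMSO, 8.01 and 8.04 with aFGF and 6.12 and 6.16 with AZD4547. The aFGF cultures stood far above both other groups. UPP1 rose 3.34-fold with aFGF (log2 1.74, SE 0.06, limma adjusted p = 6.8e-09) and was 3.69-fold lower with AZD4547 (log2 -1.88, SE 0.06, adjusted p = 2.1e-09), a larger change than that of any of the 33 members.

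SLC25A32, a mitochondrial carrier of folate, was 2.02-fold lower with AZD4547 than with aFGF (log2 -1.02, SE 0.06, limma adjusted p = 6e-07) and 1.40-fold lower than in DMSO (log2 -0.49, adjusted p = 0.0021). With aFGF it had risen by 0.53, and AK4, a mitochondrial adenylate kinase, by 0.42. SLC29A1, a nucleoside transporter, was 1.70-fold lower with AZD4547 over aFGF (log2 -0.76, SE 0.08). The adenosine receptor gene ADORA2B rose by 1.28 with aFGF, to a mean log2 intensity of 4.05, and stood at 2.05 with AZD4547 (adjusted p = 2.7e-07). Its levels in DMSO and with AZD4547 were both under the array medians, where intensities are less certain. Against DMSO, the genes called with the largest falls were ADORA2B (-0.72, between those dim levels), GCSH, of the glycine cleavage system (-0.50), SLC25A32 and PNP, the purine nucleoside phosphorylase (-0.44).

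CTH, which makes cysteine from cystathionine, had a log2 fold change of -0.52 with aFGF and rose by 0.74 with AZD4547, and SRR, the serine racemase, had -0.54 and 0.84. The folate transporter gene SLC46A1 (-0.64 with aFGF) was below the array medians in the aFGF and AZD4547 groups. CTPS (CTPS1 in current nomenclature), the other CTP synthase, was named after its values were seen. It was lower with AZD4547 than with aFGF (log2 -0.31, SE 0.05, adjusted p = 0.00096), where CTPS2 was higher. The difference between the CTP synthase genes was not tested.

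**Figure D4:**
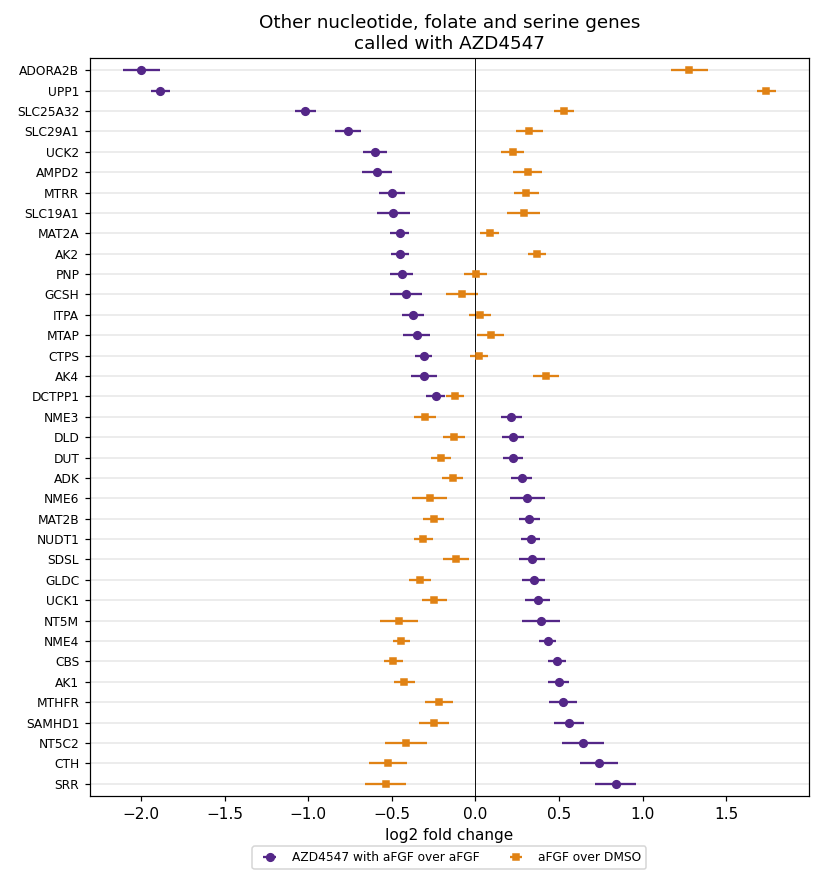
log2 fold changes with standard errors for the other pathway genes reported here that were called with AZD4547 over aFGF, ordered by that value (circles), with aFGF over DMSO beside it (squares). UPP1, at -1.88 and 1.74, and ADORA2B lie farthest from 0.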

How the data were processed

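Total RNA (500 ng per sample) was labelled with biotin and hybridised to Affymetrix arrays, per the labels' protocols. The authors processed the arrays with RMA, per the submitters' processing notes, with no version given. The intensity values that the authors deposited are linear (0.75 to 6344.2), and log2 was taken of each with no pseudocount, so values per sample and fold changes are log2 intensities and their differences. The authors' deposited table also holds a ratio and a p-value per probe set, which were not used.

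Probe sets with exactly 1 gene symbol (47340) were kept, and the brightest represented each of 19042 genes, under the deposited symbols. One mean per group was estimated from the 6 arrays in R 4.3.3 with limma 3.58.1, whose eBayes step used an intensity trend. Two-sided p-values were adjusted over all genes by the method of Benjamini and Hochberg, with a threshold of 0.05. The fit was tested on simulated data, where it called 69.6% to 72.4% of changes of 0.5 log2, depending on the comparison. Changes between 0 and 0.5, the size of many here, were not simulated. With 2 arrays per group the median standard error was 0.117 over all genes and 0.06 over the members. The number of arrays limits the precision. The labels describe dishes from 1 plating, so p-values measure the spread between dishes, which may be technical.

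The members, the lists and the tests were chosen with earlier results of these data known. All members are given. Values per array went to the called members with the largest changes, up to 8 per branch, and of the other pathway genes up to 4 called per direction were named. Some genes of that list enter its counts but are not reported here. The 11 alternatives covered left-out arrays, the replicate block, the prior variance, dim genes, scaling, probe set choice, a pseudocount of 8 and array weights.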

Additional observations from a re-analysis of the deposited data

How the results depend on the processing

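Under 16 alternative settings, 15 of the 22 member calls for AZD4547 over aFGF were kept in every one, as were 4 of 12 for aFGF over DMSO and 0 of 8 for AZD4547 over DMSO. The precision is limited by 2 arrays per group, and a left-out array leaves a lone culture that is assumed to vary like the others. Replicate numbers are shared between groups, but the labels tie them to no day or batch, and deviations of same-numbered cultures correlated at 0.05, 0.14 and -0.05 across genes. With the replicate block 7 members rose and 5 fell with aFGF, 6 and 17 were higher and lower with AZD4547 over aFGF, and 0 and 10 over DMSO. It changed no count by over 1.5 times.

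Leaving out single arrays gave the following ranges. With aFGF, 2 to 9 members rose, 3 to 9 fell and 1147 to 3449 genes were called. With AZD4547 over aFGF, 4 to 7 members were higher, 13 to 16 lower and 3046 to 5667 genes called. Over DMSO, 0 to 1 were higher, 0 to 10 lower and 29 to 1556 genes called. Medians with aFGF ranged from 0.13 to 0.22 (purine) and -0.27 to -0.15 (folate and serine). Over aFGF the pyrimidine median ranged from 0.032 to 0.12 and the folate and serine median from -0.0080 to 0.13. Over DMSO they ranged from -0.034 to 0.017 and from -0.16 to -0.057. The folate and serine median over aFGF and the pyrimidine median over DMSO thus changed sign. GUK1 reversed to -0.20 with aFGF without DMSO replicate 1 and stood at 0.31 without DMSO replicate 2.

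Without the intensity trend 2 members rose and 3 fell with aFGF (1489 genes called), and 0 were lower than DMSO (10 genes called); the cause was not tested. Fitting all probe sets called 5640 with aFGF and 10178 with AZD4547 over aFGF. These are counts of probe sets, which can include several of the same gene, so they do not compare directly with the counts of genes. With the mean of all probe sets of a gene the AZD4547 medians over aFGF were -0.37 (purine), 0.030 (pyrimidine) and -0.020 (folate and serine), and over DMSO -0.038 (pyrimidine) and -0.19 (folate and serine). Without _x_at probe sets 5 members were lower than DMSO.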
